A study of Mus musculus with 6 samples.

Results

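The genes described here encode subunits of the Polycomb repressive complexes PRC1 and PRC2, trithorax proteins that oppose them, and demethylases that remove the Polycomb mark. They were chosen by name, from a list of 42 genes. Of these, 40 had at least 1 probe set annotated to them alone, 109 probe sets in all out of the 45037 on the array that are not controls. Rybp shares its probe sets with a pseudogene in the annotation, and Ash1l had none in the annotation used, so neither was analysed here. The RNA came from 3 littermate mouse embryos at E11.5, all carrying the HB9::GFP transgene, in which the promoter of the motoneuron gene HB9 (Mnx1) drives GFP. The GFP+ motoneuron region on the left and on the right of the cervical spinal cord was laser-captured from the same sections of each embryo, and each of the 6 pools was hybridised to 1 Affymetrix mouse array. There was no untreated or mutant group: the design compares the right pool with the left pool of the same embryo, to ask which transcripts differ between the sides. Each group therefore has n = 3 embryos.

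Polycomb proteins keep developmental genes silent through many rounds of division. PRC2 methylates H3K27 on chromatin, and PRC1 ubiquitinates histone H2A and compacts chromatin, often at the same sites, whereas the trithorax methyltransferases of the COMPASS family place H3K4 methylation at active genes. In the spinal cord the Polycomb system is known for holding Hox genes silent outside their own segments, which gives motoneurons their position along the neck and trunk. The complexes are built from families of alternative subunits, so a tissue is often described by which paralog it expresses.

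The start sites of these genes are rich in CG dinucleotides, the unmethylated form of which is bound by CXXC domains such as those of the members Kdm2b and Kmt2a. In the RefSeq promoter table (GRCm38.p6), 34 of the 42 genes have a window from 250 bases before to 50 bases after a start site. The window richest in CG, on either strand the same letters, held a median of 25 CG (9 to 56) in these genes, against 8 over all 27025 genes of the table. At least 15 CG were found for 32 of the 34 genes (94.1%), against 37.1% of all genes. The windows of the PRC2 methyltransferases Ezh1 (chr11:101226414-101226713, minus strand, 23 CG) and Ezh2 (chr6:47594981-47595280, minus strand, 31 CG) are shown as a paralog pair, and those of Kmt2a (chr9:44881240-44881539, minus strand, 36 CG) and Sfmbt1 (chr14:30714917-30715216, plus strand, 26 CG) because their probe sets differed most between the sides. Capitals mark each CG.
Ezh1: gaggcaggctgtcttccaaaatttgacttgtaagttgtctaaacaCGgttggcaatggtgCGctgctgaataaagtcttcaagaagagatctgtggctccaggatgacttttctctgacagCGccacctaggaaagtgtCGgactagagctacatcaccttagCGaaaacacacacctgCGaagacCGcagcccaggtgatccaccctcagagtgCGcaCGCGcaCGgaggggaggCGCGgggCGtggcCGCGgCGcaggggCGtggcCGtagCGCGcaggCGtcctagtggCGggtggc
Ezh2: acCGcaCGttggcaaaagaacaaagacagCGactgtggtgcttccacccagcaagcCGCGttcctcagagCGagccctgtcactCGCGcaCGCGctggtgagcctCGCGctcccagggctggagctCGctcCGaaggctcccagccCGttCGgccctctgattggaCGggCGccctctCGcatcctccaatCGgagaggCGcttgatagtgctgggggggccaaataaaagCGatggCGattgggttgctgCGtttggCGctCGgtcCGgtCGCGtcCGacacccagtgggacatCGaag
Kmt2a: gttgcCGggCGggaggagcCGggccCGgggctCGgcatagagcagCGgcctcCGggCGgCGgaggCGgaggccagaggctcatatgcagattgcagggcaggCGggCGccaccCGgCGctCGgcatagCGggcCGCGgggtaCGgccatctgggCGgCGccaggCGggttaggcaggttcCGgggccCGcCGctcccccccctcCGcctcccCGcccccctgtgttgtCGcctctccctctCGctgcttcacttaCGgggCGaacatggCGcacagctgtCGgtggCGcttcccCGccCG
Sfmbt1: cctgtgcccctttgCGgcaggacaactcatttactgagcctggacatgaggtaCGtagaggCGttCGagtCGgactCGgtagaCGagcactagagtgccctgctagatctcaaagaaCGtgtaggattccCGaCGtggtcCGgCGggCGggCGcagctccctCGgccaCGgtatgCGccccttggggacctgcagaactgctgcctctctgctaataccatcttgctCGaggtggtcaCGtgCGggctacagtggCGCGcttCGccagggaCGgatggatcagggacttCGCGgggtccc

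The signal of a probe set is the linear MAS5 value computed by the authors, scaled so that each array has the same trimmed mean. It has no unit that is common to different probe sets, so levels are compared between pools and not between genes. A probe set entered the tests if its highest signal over the 6 pools reached 200. This held for 75 of the 109 probe sets, which cover 36 genes, and for 21853 probe sets of the whole array. The other 34 probe sets peaked between 14.7 and 178. Phf19, Pcgf1, Pcgf5 and Cbx7 had no probe set that reached the limit.

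Markers of motoneurons were present in every pool. All 8 motoneuron markers reached 200 (among them Mnx1, at 3520 to 5219), and their summed signal was 42228, 32961 and 24630 in the left pools of embryos 1, 2 and 3 and 42121, 29353 and 24729 in the right pools. Markers of other cells were also measured. The summed signal of the 8 mesenchyme markers was 14818 in the right pool of embryo 1 and 807 to 2181 in the other 5 pools (Twist1 and Pax1 stayed below 200), and that of 5 skeletal muscle markers was 5341 in the same pool and 125 to 311 in the others. The 9 measured markers of dividing progenitors summed to 8783, 11920 and 12634 (left) and 12203, 10477 and 11926 (right). These markers did not move together. Sox2 read 26.3 (left) and 193 (right) in embryo 1 and 443 to 964 in the other 4 pools, and Nes 2056 and 2570 against 3380 to 3902. Mki67 was highest in the right pool of embryo 1, at 3480. No other marker of the 9 had both pools of embryo 1 lowest. The 3 measured erythroid markers summed to 19414, 23973 and 37760 (left) and 36123, 22356 and 31579 (right). Those of microglia and macrophages lay between 1269 and 2000 (both in embryo 2, left and right; Aif1 stayed below 200), and those of endothelium between 664 and 1562 (Cdh5 and Tek below 200). Polycomb and trithorax genes are used by most cells, and in pooled tissue fewer cells of a type and less RNA per cell cannot be told apart.

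**Figure D1:**
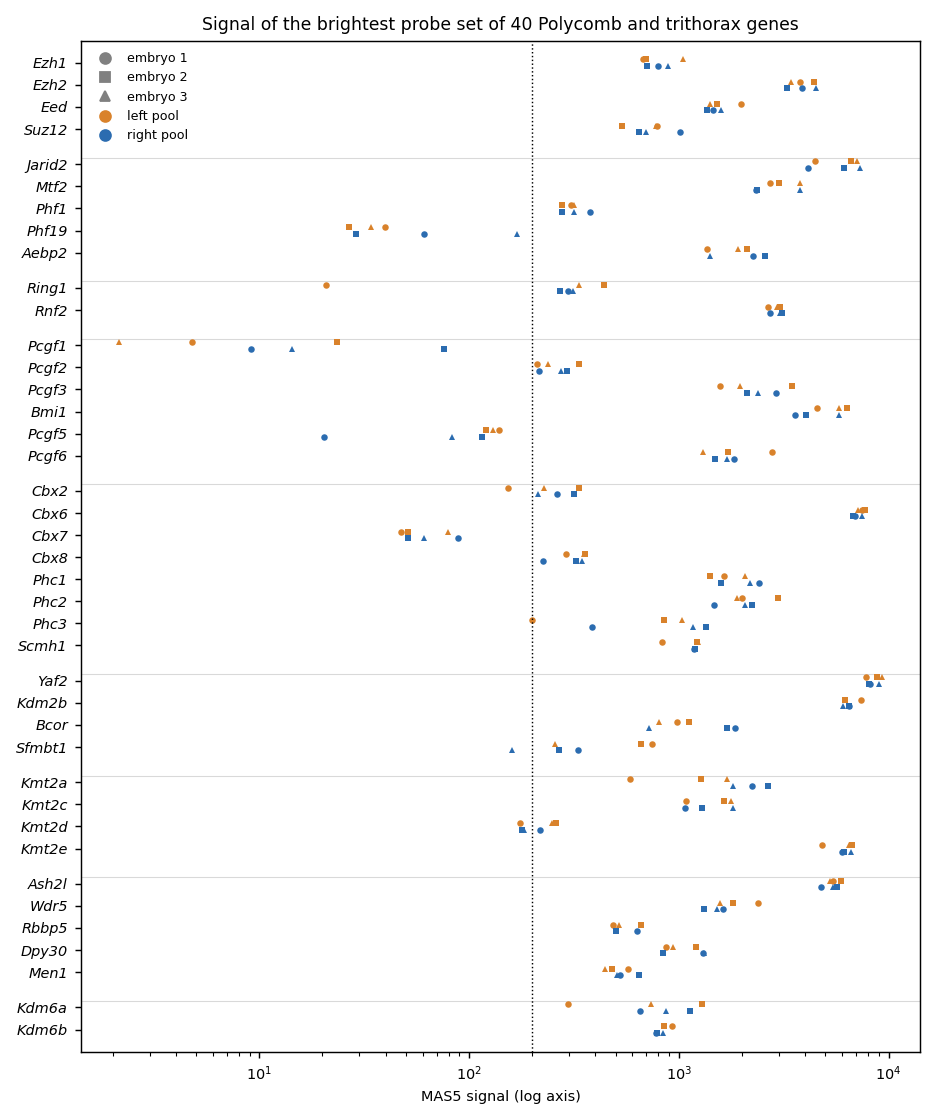
MAS5 signal (x axis, log scale) of the brightest probe set of each of the 40 genes (y axis, grouped by role from PRC2 core at the top to H3K27 demethylases at the bottom), with 1 point for each pool: colour gives the side and shape the embryo. Dotted: the limit of 200 for testing. The brightest probe sets of Phf19, Pcgf1, Pcgf5 and Cbx7 stay left of it in every pool, and the left pool of embryo 1 stands alone for Ring1 at 20.9.

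Few probe sets of these genes, as of all tested probe sets, were called between the sides. By the fold rule of the study's methods (the same sign of log2(R/L) in all 3 embryos, and a mean beyond 0.58 with at least 2 of the embryos beyond it as well), 2 of the 75 tested probe sets were higher on the right, 1 for the H3K4 methyltransferase Kmt2a and 1 for the PRC1 subunit Phc3. Another 2 were higher on the left, 1 for the MBT-domain protein Sfmbt1 and 1 for the PRC2 scaffold Suz12. That is 2.67% on each side, against 2.4% (right) and 1.55% (left) of all tested probe sets. Under median scaling of the arrays the split was 1 right and 2 left, and under quantile normalization 1 and 3. Over all tested probe sets it was 524 and 338 as deposited, 471 and 402 under median scaling and 479 and 391 under quantile normalization. The median of the mean log2(R/L) was 0.0018 over the 75 probe sets (39 above 0 and 36 below) and 0.016 over all tested. Suz12, Kmt2a and Phc3 stand in lists that the study chose on these same pools, so their direction is not independent evidence. The call of Sfmbt1 was read from the same pools and is not independent evidence either.

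With limma (side and embryo as terms) no probe set of these genes passed an adjusted p of 0.05, and none of all 21853 did (0%). An unadjusted p under 0.05 was found for 5 of the 75 (6.67%, against 3.4% of all tested): the 4 probe sets above and 1 of Bmi1. All right pools lay above all left pools in 2 of the 75 (2.67%, against 2.98% of all), for Kmt2a and Kmt2c. All left pools lay above all right pools in 5 of the 75 (6.67%, against 2.45%), with 1 probe set each of Aebp2, Ash2l, Kdm6b, Mtf2 and Suz12.

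**Figure D2:**
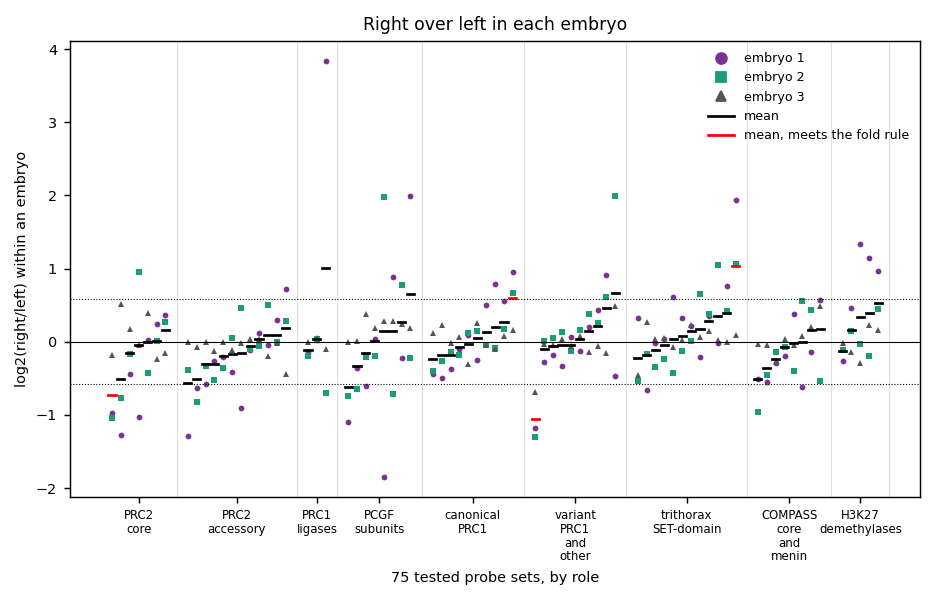
The log2 ratio of the right to the left signal (y axis) in each embryo (colour and shape) for the 75 tested probe sets, ordered by role and, within a role, by their mean (x axis). Bars are means over 3 embryos, red where the fold rule was met, and dotted lines mark 0.58 on either side of 0. Most means lie near 0, and the point at 3.83 is Ring1 in embryo 1.

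How far the sides differed depended on the embryo. The median absolute log2(R/L) of the 75 probe sets was 0.42 in embryo 1, 0.33 in embryo 2 and 0.093 in embryo 3, and over all tested probe sets it was 0.40, 0.33 and 0.14. A ratio beyond 0.58 in either direction was measured for 25 of the 75 in embryo 1 (33.3%, against 35.3% of all tested), for 18 in embryo 2 (24%, against 29.6%) and for 1, of Sfmbt1, in embryo 3 (1.33%, against 6.88%). Embryo 3 thus had the closest pools, also over all tested probe sets, whose left and right log2 signals correlated at 0.980 there against 0.879 and 0.903 in embryos 1 and 2.

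The core of PRC2 showed 1 call among 7 tested probe sets. Ezh2, the main methyltransferase of dividing cells, gave signals of 3787, 4398 and 3431 in the left pools of embryos 1, 2 and 3, in this order throughout, and of 3849, 3287 and 4529 in the right pools. The right pool was higher in embryos 1 and 3 and lower in embryo 2, and the mean log2(R/L) was 0.00 ± 0.41 (SD, n = 3). Ezh1, the paralog typical of resting cells, read 673, 700 and 1044 (left) and 793, 705 and 889 (right), with a mean of 0.01 ± 0.23. Both Ezh1 pools of embryo 3 lay above the other 4 pools. Eed, which binds the H3K27 mark, had a mean log2(R/L) of −0.15 ± 0.31.

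Suz12 was measured by 3 tested probe sets that disagreed. On 1427253_s_at it read 508, 431 and 319 (left) and 258, 209 and 283 (right), so the sides did not overlap. The log2(R/L) was −0.98, −1.04 and −0.18, on average −0.73 ± 0.48, a 1.66-fold higher signal on the left (limma adjusted p = 0.974). The brightest, 1420021_s_at, read 785, 535 and 775 (left) and 1012, 644 and 697 (right), a mean of 0.16 ± 0.28 in the opposite direction. The third, 1452364_at, read 387, 209 and 136 (left) and 160, 124 and 195 (right), with −0.50 ± 0.92. The suffix _s_at marks probe sets whose probes can match more than 1 transcript.

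Among the accessory subunits that direct PRC2 to its sites, none of 12 tested probe sets met the fold rule. Jarid2, which recruits PRC2 to chromatin, read 4474, 6611 and 7105 (left) and 4129, 6162 and 7318 (right) on its brightest probe set (−0.06 ± 0.09). Both pools of embryo 1 were the lowest on all 3 of its probe sets, and on 2 of them with equal array medians. Mtf2, a Polycomb-like protein that binds CG-rich DNA, came close to the limit on 1418514_at, with 1533, 1481 and 2025 (left) and 626, 1136 and 2021 (right). Its log2(R/L) was −1.29, −0.38 and 0.00, on average −0.56 ± 0.66. On 1418516_at Mtf2 read 993, 832 and 766 (left) and 643, 472 and 729 (right), without overlap (−0.51 ± 0.39). The other 3 Mtf2 probe sets had means from −0.19 to 0.09. Phf19, another Polycomb-like protein, read 26.8 to 60.9 in 5 pools and 170 in the right pool of embryo 3.

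The PRC1 ubiquitin ligases gave the widest ratio of a single embryo among the 75 tested probe sets, from a left signal far below 200. Ring1 read 20.9, 442 and 333 in the left pools and 297, 272 and 312 in the right pools. Only the left pool of embryo 1 was far from the others, so that the log2(R/L) was 3.83 in embryo 1 and −0.70 and −0.09 in embryos 2 and 3. The mean of 1.01 ± 2.46 rests on that pool. Rnf2, the other ligase, read 2670, 3024 and 2940 (left) and 2709, 3107 and 3049 (right), a mean log2(R/L) of 0.04 ± 0.02 with the smallest SD among the 75 tested probe sets. Under median scaling this mean was −0.05, of opposite sign. The second tested Rnf2 probe set, 1451519_at, was lower on the right in 3 of 3 embryos, with −0.15, −0.20 and −0.01, a mean of −0.12 ± 0.10.

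The PCGF subunits, of which each PRC1 complex holds 1, gave no call in 8 tested probe sets. Bmi1, a classical repressor of the Ink4a locus, read 4581, 6340 and 5804 (left) and 3569, 4061 and 5822 (right), a log2(R/L) of −0.36, −0.64 and 0.00 (−0.33 ± 0.32). Its second probe set, 1448733_at, read 1145, 1584 and 1725 (left) and 535, 947 and 1726 (right). The mean there was −0.61 ± 0.56, past the limit, but the ratio of embryo 3 was just above 0 (0.0007), so the rule of equal sign was not met (limma adjusted p = 0.974). On both probe sets the right pool was lower in embryos 1 and 2 and level with the left in embryo 3.

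Pcgf2, the closest paralog of Bmi1, read 211, 334 and 239 (left) and 217, 292 and 273 (right), a mean log2(R/L) of 0.01 ± 0.20. Pcgf3 read 1564, 3463 and 1954 (left) and 2897, 2122 and 2374 (right) on its brightest probe set, with ratios of opposite sign in embryos 1 and 2 (0.15 ± 0.81). Its 2 dimmer probe sets and that of Ring1 had the widest range between embryo means among the 75, at 5.74-fold (1440203_at), 4.30-fold (1428424_at) and 4.40-fold (Ring1). In those 2 probe sets both pools of embryo 1 (36.1 and 144, and 185 and 51.8) lay below the other 4. Pcgf6, the subunit of a germline-gene repressing complex, read 2790, 1721 and 1303 (left) and 1830, 1485 and 1698 (right), a mean log2(R/L) of −0.15 ± 0.50. Pcgf1 and Pcgf5 stayed below the signal limit, at 2.14 to 75.8 and 20.3 to 139.

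The canonical PRC1 subunits gave 1 call in 10 tested probe sets. Phc3, a polyhomeotic protein whose SAM domain polymerises, read 200, 847 and 1038 (left) and 387, 1351 and 1163 (right). The right pool was the higher one in each embryo, but the embryos differed more than the sides: both pools of embryo 1 lay below the other 4. The log2(R/L) was 0.95, 0.67 and 0.16, on average 0.60 ± 0.40, just inside the limit of 0.58 and 1.51-fold (limma adjusted p = 0.974). The mean was 0.51 with median scaling, 0.57 with quantile normalization and 0.54 with 50 added to the signals, which ended the call. Phc1 read 1642, 1403 and 2059 (left) and 2420, 1587 and 2180 (right), also higher on the right in 3 of 3 embryos but with a mean of 0.27 ± 0.25. The 2 tested probe sets of Phc2 had means of −0.24 and −0.18.

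The CBX proteins carry the chromodomain that reads H3K27 methylation. Cbx6 read 7442, 7730 and 7150 (left) and 6951, 6796 and 7497 (right), a mean log2(R/L) of −0.07 ± 0.13. Cbx2 read 153, 333 and 226 (left) and 264, 315 and 212 (right), a mean log2(R/L) of 0.21 ± 0.50. Cbx8 read 290, 358 and 351 (left) and 225, 325 and 347 (right), lower on the right in 3 of 3 embryos by a mean of 0.18 (−0.18 ± 0.18). Cbx7, a subunit known from stem cells, read only 47.1 to 88.5.

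Variant PRC1 lacks a CBX protein and holds Rybp or Yaf2 in its place. Yaf2 read 7795, 8767 and 9332 (left) and 8145, 8037 and 9002 (right), a mean log2(R/L) of −0.04 ± 0.10. Kdm2b, which brings a variant complex to CG islands, had means of −0.06 and 0.04 on its 2 probe sets. Bcor, the scaffold of the same complex, read 984, 1117 and 805 (left) and 1853, 1700 and 725 (right) on its brightest probe set. The right pool was higher in embryos 1 and 2 and lower in embryo 3, with a mean log2(R/L) of 0.46 ± 0.55 (limma adjusted p = 0.974). The other Bcor probe sets had means of 0.21 and −0.10.

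Sfmbt1, related to a fly Polycomb protein, had the largest mean difference of the 75 probe sets on 1429749_at. It read 748, 657 and 257 (left) and 330, 267 and 160 (right). The left pool was higher in each embryo, and the sides overlapped because the left pool of embryo 3 lay below the right pools of embryos 1 and 2. The log2(R/L) was −1.18, −1.30 and −0.68, on average −1.05 ± 0.33, a 2.08-fold higher signal on the left (limma adjusted p = 0.974). It was the one member call past the limit in all 3 embryos. That it also held without any 1 of them follows from this and is not further evidence. The 2 other tested probe sets did not share its direction: 1455412_at had a mean of 0.15 ± 0.26, and 1422894_at one of 0.67 ± 1.24 (214, 57.7 and 125 left, 155, 230 and 176 right).

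Kmt2a (also MLL1), the trithorax homolog that methylates H3K4 at Hox genes, had the largest mean toward the right. On 1452377_at it read 583, 1272 and 1704 (left) and 2232, 2665 and 1817 (right), so that the sides did not overlap. The log2(R/L) was 1.94, 1.07 and 0.09, on average 1.03 ± 0.92 or 2.05-fold (limma adjusted p = 0.974). The right pools differed less among themselves than the left pools, and in embryo 3 the sides were close. The second Kmt2a probe set, 1427283_at, read 978, 705 and 702 (left) and 845, 1109 and 737 (right), with a mean of 0.17 ± 0.44 and a ratio below 0 in embryo 1.

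The other SET-domain proteins showed no call. Kmt2c, a methyltransferase of enhancers, was higher on the right in 3 of 3 embryos on 1427150_at (650, 720 and 783 left, 828, 935 and 865 right), a small difference of 0.29 ± 0.13. Its other 3 tested probe sets had means from −0.11 to 0.39. Kmt2d, its paralog, read 175, 259 and 250 (left) and 219, 178 and 183 (right), a mean log2(R/L) of −0.22 ± 0.47. Kmt2e read 4809, 6691 and 6503 (left) and 6032, 6135 and 6642 (right), a mean log2(R/L) of 0.08 ± 0.23.

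Of the subunits shared by the COMPASS complexes and of menin, none of 8 tested probe sets met the fold rule. Ash2l read 5439, 5948 and 5253 (left) and 4757, 5656 and 5420 (right), a mean log2(R/L) of −0.07 ± 0.12. Wdr5, the subunit that holds the core together, was lower on the right in 3 of 3 embryos on both of its probe sets, with means of −0.35 ± 0.27 and −0.50 ± 0.46. Rbbp5 and Dpy30 had means of −0.02 and 0.18. Men1, whose product menin tethers Kmt2a, read 574, 482 and 444 (left) and 523, 650 and 508 (right), a mean log2(R/L) of 0.16 ± 0.28.

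The calls of Kmt2a, Phc3 and Suz12 rested on embryos 1 and 2 together. With embryo 1 or embryo 2 left out, and the limit required in both of the others, 0 of the 75 probe sets were called on the right and 1 on the left (Sfmbt1). This was fixed by the ratios of embryo 3, which passed the limit for that probe set of Sfmbt1 alone. With embryo 3 left out, 3 were called on the right (Bcor in addition) and 5 on the left (Bmi1, Mtf2 and a second probe set of Suz12 in addition). No share of all tested probe sets stands beside these counts, so they are not read as particular to these genes. Embryo 3 had the closest pools over all tested probe sets too, with a median absolute log2(R/L) of 0.14 against 0.40 and 0.33. The right pool of embryo 1, which carries the mesenchyme and muscle signal, enters every value that uses embryo 1. In embryo 2 the muscle markers summed to 311 on the left and 125 on the right, and the mesenchyme markers to 807 and 2181. The log2(R/L) of embryo 2 was 1.07 for Kmt2a, 0.67 for Phc3, −1.04 for Suz12 and −1.30 for Sfmbt1. The part of mesenchyme and muscle tissue in these ratios was not tested.

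**Figure D3:**
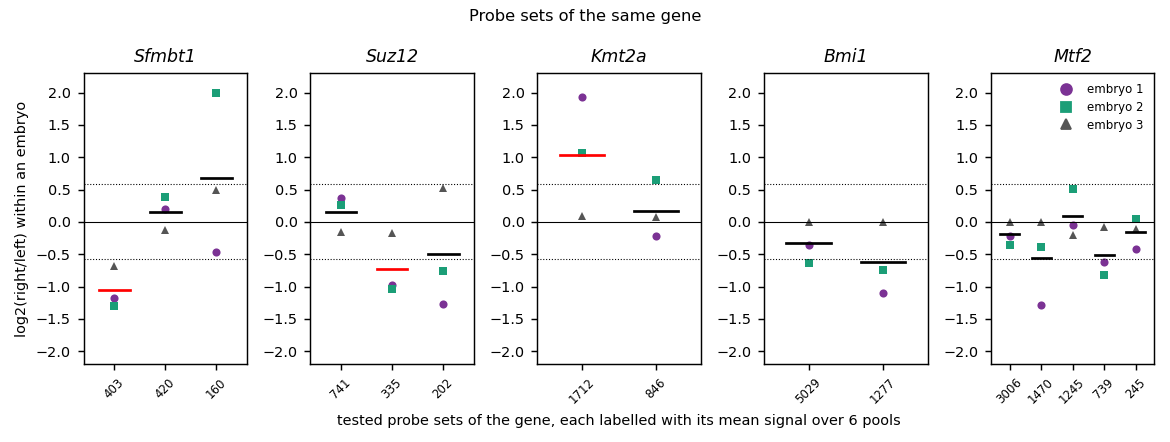
The log2 ratio of the right to the left signal (y axis) for each tested probe set of Sfmbt1, Suz12, Kmt2a, Bmi1 and Mtf2, labelled on the x axis with its mean signal over the 6 pools. Points are embryos, bars are means (red where the fold rule was met), and dotted lines mark 0.58 on either side of 0. Only 1 probe set of each of Sfmbt1, Suz12 and Kmt2a met the rule, and on both Bmi1 probe sets embryo 3 lies at 0 with embryos 1 and 2 below it.

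Probe sets of 1 gene did not always agree. Of the 24 genes with at least 2 tested probe sets, the means of log2(R/L) lay farthest apart for Sfmbt1, by 1.73. Suz12 (0.89) and Kmt2a (0.86) followed. These are also 3 of the 4 genes with a call, but a call requires a mean far from 0, so this overlap is partly built in. Phc3 had 1 tested probe set. For Yaf2, Cbx6 and Ezh1, which have 2 tested probe sets each, the means of the probe sets lay within 0.05.

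Of the H3K27 demethylases, none of 5 tested probe sets was called between the sides, and Kdm6a differed between embryos. Kdm6a (UTX), which is X-linked, had both pools of embryo 2 above the other 4 on all 3 tested probe sets. On the brightest it read 296, 1289 and 739 (left) and 655, 1126 and 870 (right). On 1427235_at it read 420, 1044 and 312 (left) and 577, 1162 and 282 (right), and on 1445198_at 58.2, 305 and 275 (left) and 147, 298 and 226 (right). The embryo with the highest mean exceeded the one with the lowest by 2.73-fold, 3.71-fold and 3.26-fold. Its mean log2(R/L) was 0.40 ± 0.68, 0.16 ± 0.30 and 0.34 ± 0.88.

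Uty, the Y-linked paralog of Kdm6a, and Xist, the RNA of the inactive X chromosome, separated the same embryo. On its brightest probe set Uty read 923, 4.57 and 242 (left) and 572, 33.8 and 302 (right). Xist read 13416 and 12058 in embryo 2 and 2.70 to 5.57 in the other 4 pools. Bcor, the other X-linked member, had embryo 2 above the other 4 pools on 2 of its 3 probe sets. On the third, its brightest, both pools of embryo 3 were the lowest. The sample labels do not give the sex of the embryos. The part of X dosage in these values was not tested. With Xist high in embryo 2 alone, it cannot be told apart from other differences of that embryo. Kdm6b (JMJD3), an autosomal demethylase, read 933, 848 and 855 (left) and 779, 785 and 842 (right), a mean log2(R/L) of −0.13 ± 0.12 on its brightest probe set, without overlap of the sides. A dimmer one, 1447612_x_at, read 259, 226 and 427 (left) and 508, 309 and 478 (right), in the opposite direction (0.53 ± 0.41).

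**Figure D4:**
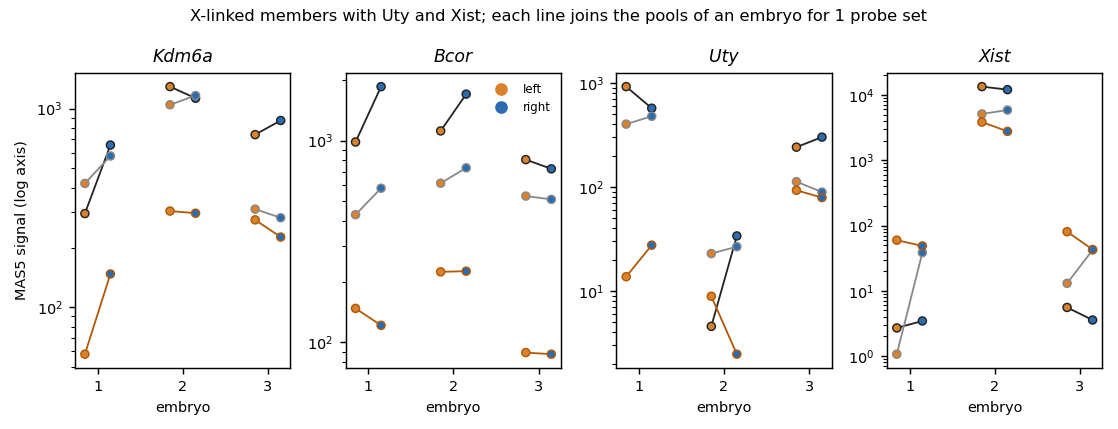
MAS5 signal (y axis, log scale, different in each panel) in the left and right pools of embryos 1 to 3 (x axis) for the tested probe sets of Kdm6a and Bcor and for 3 probe sets each of Uty and Xist. Lines of 1 colour join the pools of an embryo for 1 probe set. The Kdm6a values of embryo 2 are the highest of their probe set, where Xist reaches 13416 and Uty is at 4.57.

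Differences between embryos were common among these genes. Both pools of 1 embryo lay above or below the other 4 pools in 46 of the 75 probe sets (61.3%, of 27 genes), against 50.7% of all tested probe sets. With median scaling it was 34 of the 75 (45.3%, against 49.1%), so the higher share depends on the scaling. As deposited, embryo 1 was below in 20 (26.7%, against 11.9% of all) and above in 4 (against 9.93%). Embryo 2 was above in 13 (17.3%, against 8.78%) and below in 5 (against 8.06%), and embryo 3 above in 11 (against 13.4%) and below in 6 (against 12.8%). A probe set can count for 2 embryos. Embryo 3 was above on 4 of the 5 tested probe sets of Mtf2, and embryo 2 on all 3 of Kdm6a. Both counts were the same with median scaling and with quantile normalization. The low values of embryo 1 included all 3 probe sets of Jarid2, both of Rnf2 and both of Scmh1. The counts moved with the scaling. With the medians of the arrays made equal, embryo 1 was below in 12 of the 75 (16%, against 8.54% of all). Embryo 2 was then above in 10 (13.3%, against 7.75%). Embryo 3 was above in 5 (6.67%, against 9.5%) and below in 9 (12%, against 15.8%). The low values of embryo 1 then included 2 of Jarid2, 0 of Rnf2 and 1 of Scmh1. With quantile normalization embryo 1 was below in 21 (28%, against 11.6% of all) and embryo 2 above in 13 (17.3%, against 8.68%). With each scaling these shares of embryo 1 below and embryo 2 above exceeded those of all tested probe sets. The summed motoneuron signal also differed between embryos, highest in embryo 1 and lowest in embryo 3, and its part in these counts was not tested. Much of that sum was Prph (23019, 15618 and 10514 in the left pools of embryos 1, 2 and 3), and not every marker followed this order. The progenitor markers Sox2 and Nes were lowest in both pools of embryo 1, unlike the other progenitor markers, and their part was not tested either. The array medians ran from 99.9 in the left pool of embryo 1 to 118 in the left pool of embryo 3.

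The balance of paralogs was compared between the sides as the log2 ratio of 2 signals in each pool, for 8 pairs fixed by name. With 3 embryos the smallest p of the exact two-sided sign-flip test is 0.25, so no pair could pass, and all 8 adjusted p were 1. The ratio of Ezh2 to Ezh1 differed between right and left by 0.00 ± 0.56 (SD, n = 3). That of Bmi1 to Pcgf2 was lower on the right in 3 of 3 embryos, by −0.40, −0.45 and −0.19 (−0.35 ± 0.14, exact p = 0.25). That of Kmt2a to Kmt2d was higher on the right in 3 of 3 embryos, by 1.62, 1.61 and 0.54 (1.26 ± 0.62, exact p = 0.25), and it uses the called probe set of Kmt2a. The other pairs had signs that differed between embryos: Ring1 to Rnf2 by 0.97 ± 2.47, Kdm6a to Kdm6b by 0.53 ± 0.78, Cbx2 to Cbx6 by 0.28 ± 0.54, Cbx2 to Cbx7 by 0.03 ± 0.23 and Cbx8 to Cbx7 by −0.35 ± 0.84. The signals of Cbx7 were below the limit.

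**Figure D5:**
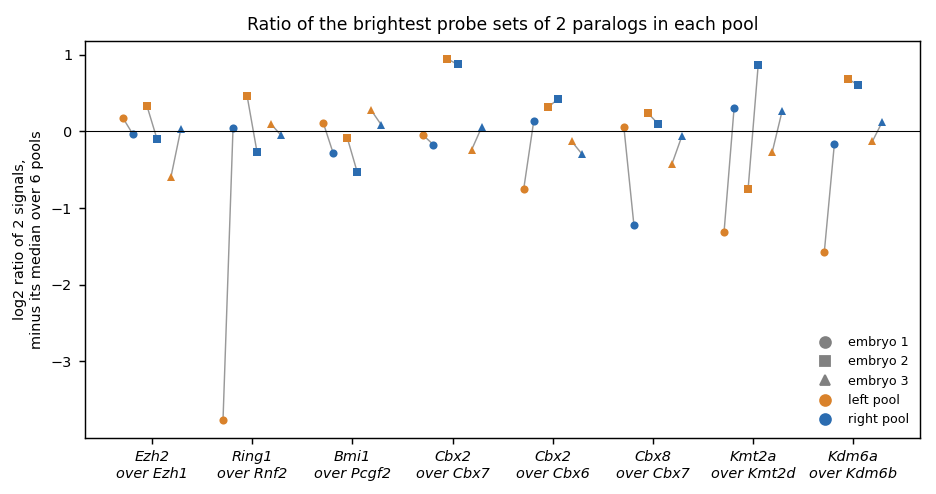
The log2 ratio of the signals of 2 paralogs in each pool, after subtraction of the median of the 6 pools (y axis), for 8 pairs (x axis). Colour gives the side and shape the embryo, and lines join the pools of an embryo. Lines slope the same way in all 3 embryos for Bmi1 over Pcgf2 and for Kmt2a over Kmt2d, and the low point at the second pair is the left pool of embryo 1.

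Other genes of the same systems were counted from lists fixed by name. Among 24 further Polycomb genes (64 tested probe sets), 2 probe sets met the fold rule on the right (2.4% of all tested probe sets did) and 0 on the left (1.55%). They were those of the MBT-domain protein Mbtd1, at 38.6, 86.6 and 175 (left) and 126, 191 and 237 (right), a mean log2(R/L) of 1.09 ± 0.64, and of Auts2, a partner of a variant PRC1, at 125, 129 and 308 (left) and 264, 200 and 366 (right; 0.66 ± 0.42). Among 17 partners of COMPASS (39 probe sets), the H3K4 methyltransferase Setd1b met it on the right, at 504, 937 and 1060 (left) and 1170, 1413 and 1133 (right), a mean log2(R/L) of 0.63 ± 0.56, and 0 met it on the left. Among 26 subunits of the BAF remodelling complexes (51 probe sets), 0 met it on either side. The medians of the mean log2(R/L) were −0.01, 0.05 and 0.04. By limma 0 probe sets of these lists passed the adjusted threshold, and 1, 2 and 0 had an unadjusted p under 0.05 (3.4% of all tested).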

How the data were processed

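The authors computed 1 expression signal per probe set with MAS5 in Affymetrix Expression Console (version not given in the sources used here) on Affymetrix GeneChip mouse arrays, from amplified RNA with an integrity number above the study's limit. The deposited values are linear signal intensities, 1 array per pool, with a mean of 500 after trimming 2% at each end. No further scaling was applied. Detection calls were not used here. Of 45101 probe sets, 64 controls were left out; 34945 of the rest have 1 gene in the annotation, 932 several and 9160 none, and members are probe sets with that gene alone. The brightest is the one with the highest single signal.

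Ratios of right over left were formed on the log2 scale within an embryo, since both pools come from the same animal and sections. After subtraction of side means, the correlation between the 2 pools was 0.241 (embryo 1), 0.215 (embryo 2) and 0.495 (embryo 3). The fold rule follows the methods, but the study also required each transcript to be called present in every embryo, which was not applied here. Limma 3.58.1 (R 4.3.3, trend, Benjamini-Hochberg over 21853 probe sets) was the test. On simulated data it missed many of the changes put in, so an absence of calls does not show equal sides. Nothing says how the pools vary technically, and precision is limited by having 6 arrays. The summaries used Python 3.11.15.

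Members and lists were chosen with earlier results of these data known. Genes with values in each pool are named by rule: 12 fixed genes, probe sets that met the fold rule, the 5 per side with the smallest p, the 3 genes whose probe sets differed most, the 3 widest ranges between embryos, X-linked members, and the highest and lowest of each role. Others were named after their values were seen. Alternatives were other scalings, 50 added to each signal, other signal and fold limits, each embryo left out, no embryo term, no variance trend and all probe sets of a gene.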

Additional observations from a re-analysis of the deposited data

How the results depend on the processing

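By the fold rule, 2 probe sets were called on the right and 2 on the left. On the right, 1 (Kmt2a) remained with median scaling, with quantile normalization, with 50 added or with a 2-fold limit, and 0 with the limit required in all 3 embryos. Without a signal limit 4 were called there, Pcgf1 and Phf19 in addition, both from signals below 200. On the left, 1 (Sfmbt1) remained with a 2-fold limit and with the limit in all 3 embryos, and 3 were called without a signal limit (Pcgf5 in addition) and with quantile normalization (Bmi1 in addition). With each embryo left out in turn, the counts ran from 0 to 3 on the right and from 1 to 5 on the left, with no share of all tested probe sets beside them. Over all tested probe sets, 60.8% of the fold calls were on the right, against 54% with median scaling, which moved the median log2(R/L) of embryos 1 to 3 from 0.03, 0.03 and 0.00 to −0.14, −0.14 and 0.08.

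Limma called 0 of the 75 probe sets in every alternative run, and the adjusted p of the named probe sets ran from 0.816 to 1.0. With no replicate block, that is without the pairing by embryo, it called 0, with 3 at an unadjusted p under 0.05 against 5. Over all probe sets it called 1 without embryo 1 and 0 otherwise. The Bmi1 to Pcgf2 difference was −0.49 with all tested probe sets of a gene. Among the named means, those of Pcgf1 (0.40 with 50 added) and Rnf2 (−0.05 with median scaling, a change of sign) moved by more than 1 SD. Low signals, which MAS5 measures poorly, limit what can be said of Pcgf1, Pcgf5, Cbx7 and Phf19.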
